A study of Mus musculus with 15 samples.

Results

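Enteric neuron and glia genes are genes read mainly by the nervous system of the gut wall, and 8 of them, picked by symbol, were followed here: the neuropeptide genes Cartpt and Vip, the neuronal genes Elavl4, Uchl1 and Ret, and the glial genes S100b, Sox10 and Gfap. These 8 were among 17751 gene symbols listed in at least 1 mouse, and all 8 passed the filter on low counts that left 14386 genes for testing. RNA was measured in intestinal tissue (ileum in the methods) of 15 female C57BL/6 mice (C57BL/6JOlaHsd in the methods), labelled 8 weeks old, 5 in each of 3 groups. The water group received water by gavage, and the low PAC and high PAC groups received 200 mg/kg of proanthocyanidins (PAC), polymers of flavan-3-ols purified from grape, of low or high molecular weight; every mouse was gavaged each 2 days for 10 days. The methods call the third group medium in its mean degree of polymerization, and the label, high PAC, is kept here. No infection, transgene or other agent is given for any group, and the question is whether polymer size changes the response of the gut. Each library is bulk RNA of 1 mouse, so the neurons, the glia and all other cells of the wall are read together, and fewer cells of a type cannot be told apart from less RNA per cell. Fabp6, the ileal bile acid binding protein, was read at 4196 to 10620 FPKM (fragments scaled by transcript length and library size), and Vil1, a brush border gene, at 500.01 to 968 FPKM.

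The enteric nervous system lies in the muscle wall of the gut as the myenteric plexus, between the muscle layers, and as the submucosal plexus beneath the mucosa. Its neurons drive and restrain peristalsis and secretion, and its glia ensheathe them. VIP relaxes smooth muscle and stimulates secretion, CART peptide marks a subset of enteric neurons, ELAVL4 (HuD) is an RNA-binding protein of neurons, and UCHL1 (PGP9.5) is an abundant neuronal deubiquitinase used as a stain for nerves. RET is the receptor that, with GFRA1, binds GDNF and builds the enteric nervous system in the embryo. SOX10 is the transcription factor of glia and of neural crest progenitors, S100B is a calcium-binding protein of glia, and GFAP is their intermediate filament. Myh11, the smooth muscle myosin heavy chain, stands here for the amount of muscle wall in each piece of tissue.

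The 2 neuropeptide genes are both known to answer to cyclic AMP, and their promoters are shown because the peptides are the members whose levels relative to the other neuronal genes were compared. The windows run from 250 bases before to 50 bases after the start site in RefSeq (GRCm38.p6), and capitals mark TGACG, or CGTCA on the other strand, the core of the cyclic AMP response element. In GENCODE (GRCm38) the Cartpt gene spans chr13:99898489-99901091 (minus strand) and the Vip gene chr10:5639218-5647617 (plus strand).

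Cartpt, chr13:99900634-99900933, minus strand: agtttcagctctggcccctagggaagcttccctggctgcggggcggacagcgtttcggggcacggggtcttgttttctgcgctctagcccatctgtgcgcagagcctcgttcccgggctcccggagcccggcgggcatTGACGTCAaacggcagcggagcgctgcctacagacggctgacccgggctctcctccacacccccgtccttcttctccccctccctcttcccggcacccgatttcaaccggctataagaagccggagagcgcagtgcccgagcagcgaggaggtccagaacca

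Vip, chr10:5638968-5639267, plus strand: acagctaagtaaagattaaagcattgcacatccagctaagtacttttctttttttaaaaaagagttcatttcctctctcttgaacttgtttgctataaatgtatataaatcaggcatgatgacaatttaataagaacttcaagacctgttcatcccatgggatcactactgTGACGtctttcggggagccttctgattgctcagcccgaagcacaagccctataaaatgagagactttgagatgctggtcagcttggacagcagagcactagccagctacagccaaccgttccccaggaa

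Cartpt held the palindrome TGACGTCA, in which the 2 motifs overlap, from 112 bases before the start site, and Vip held TGACG from 79 bases before it. Of 32851 promoters of the same length, 20.8% held TGACG on either strand and 1.79% held TGACGTCA. Among the 6 members with a listed promoter, Elavl4 has several windows. It held the short motif in windows 1, 2 and 3, of which 2 and 3 overlap, but not in window 4. Uchl1, S100b and Gfap did not hold it in their windows. The 20.8% counts promoters rather than genes. Ret and Sox10 had no entry.

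Libraries were even in depth, with 15963086 to 17903886 expected counts per mouse and 16138 to 16392 genes listed. They were uneven in muscle. Myh11 was read at 42.0 and 46.3 FPKM in water mice 3 and 1, at 89.2 FPKM in low PAC mouse 4 and 90.5 FPKM in high PAC mouse 3, and at 155 to 199 FPKM in the other 11 mice. The summed FPKM of 12 smooth muscle genes was 410 to 1258 in water, 808 to 1380 in low PAC and 1012 to 1510 in high PAC mice. A list of 8 follicular B cell genes, which marks lymphoid tissue in the piece, summed to 69.2 to 229 FPKM in 7 mice (water 1, 3 and 5, low PAC 3 and 5, high PAC 1 and 3) and to 5.69 to 8.83 FPKM in the other 8. The edgeR values of the 8 members against water are therefore also given without water mice 1 and 3. Those without the 4 mice with the lowest Myh11 are given for high PAC, and for low PAC as a count and median.

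On the FPKM scale, which is per transcript length, the members spanned a wide range across the 15 mice. Vip was the highest at 14.5 ± 3.43 FPKM (SD, n = 15), followed by Uchl1 at 6.84 ± 2.11, Ret at 2.52 ± 0.50, Elavl4 at 1.95 ± 0.64, S100b at 0.95 ± 0.31, Sox10 at 0.86 ± 0.30, Cartpt at 0.72 ± 0.43 and Gfap at 0.17 ± 0.09 FPKM. Elavl4 lay below Ret by less than its own SD and more than that of Ret, while S100b, Sox10 and Cartpt lay within 1 SD of each other. Cartpt rested on 0 to 21 expected counts per mouse, Gfap on 2 to 15 and S100b on 8 to 40, so counting error alone is large for these genes. Ret rested on 188 to 432 and Vip on 212 to 518 counts.

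**Figure D1:**
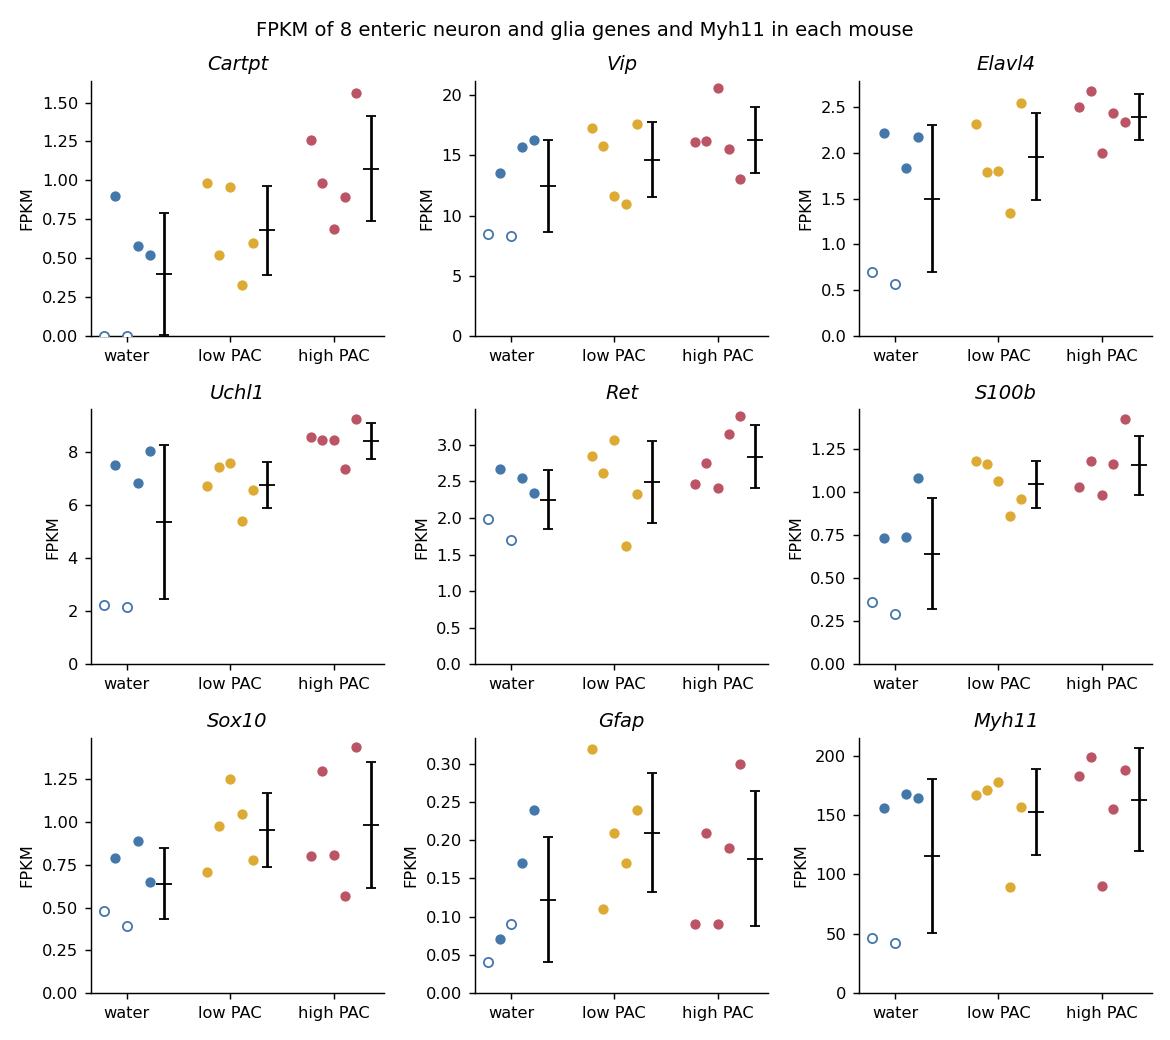
FPKM of each of the 8 genes and of Myh11 (y axes, each from 0) in the 5 mice of the water, low PAC and high PAC groups, with the group mean and SD as black bars; open circles are water mice 1 and 3. An open circle is the lowest of the 15 mice, or tied for it, in 7 of the 8 genes and in Myh11; Ret has its lowest value, 1.62 FPKM, in a low PAC mouse.

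Cartpt showed the largest log2 difference between high PAC and water of the 8 genes. In the water mice its level was 0, 0.90, 0, 0.58 and 0.52 FPKM (mice 1 to 5), in the low PAC mice 0.98, 0.52, 0.96, 0.33 and 0.60 FPKM, and in the high PAC mice 1.26, 0.98, 0.69, 0.89 and 1.56 FPKM. The mean was 0.40 ± 0.39 in water, 0.68 ± 0.28 in low PAC and 1.08 ± 0.34 FPKM in high PAC (SD, n = 5 each), and the groups overlapped. The mice listed at 0 are the same 2 water mice that had the least Myh11, and 3 counts, about the one-sided 95% upper limit of a count of 0, would be 0.23 FPKM in each. edgeR's quasi-likelihood test gave a log2 fold change of 1.32 for high PAC against water (SE 0.58, 95% interval 0.09 to 2.55, unadjusted p = 0.0366, adjusted p = 0.307). On log2(FPKM + 0.1) the difference was 1.76 with a two-sided exact permutation p of 0.0238, where 0.0079 is the smallest that 5 against 5 mice can give. This p was 0.0635 to 0.0952 when any 1 of the high PAC mice was left out. Without water mice 1 and 3 the edgeR value was 0.61 (unadjusted p = 0.129), and without the 4 mice with the lowest Myh11 it was 0.74 (unadjusted p = 0.0454, adjusted p = 0.622). Cartpt is among the genes that the study itself picked out on these mice, so its difference is no independent evidence.

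Vip, the other peptide gene, differed less. It was read at 8.50, 13.53, 8.28, 15.68 and 16.27 FPKM in the water mice, at 17.26, 15.78, 11.66, 10.96 and 17.58 FPKM in the low PAC mice, and at 16.08, 16.23, 20.57, 15.57 and 13.02 FPKM in the high PAC mice. Water mice 1 and 3 were the lowest of all 15, while high PAC mouse 3, with little Myh11, was the highest. The edgeR log2 fold change of high PAC against water was 0.30 (SE 0.19, 95% interval -0.10 to 0.70, adjusted p = 0.451), and it was 0.04 without water mice 1 and 3 and -0.05 without the 4 mice with the lowest Myh11.

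The neuronal genes Elavl4 and Uchl1 were far lower in water mice 1 and 3 than in any other mouse. Uchl1 was read at 2.23, 7.51, 2.18, 6.82 and 8.04 FPKM in the water mice, at 6.74, 7.45, 7.60, 5.42 and 6.58 FPKM in the low PAC mice and at 8.57, 8.46, 8.44, 7.37 and 9.25 FPKM in the high PAC mice. Elavl4 was read at 0.70, 2.22, 0.57, 1.83 and 2.17 FPKM in water, at 2.32, 1.79, 1.80, 1.34 and 2.55 FPKM in low PAC and at 2.50, 2.68, 2.00, 2.44 and 2.34 FPKM in high PAC mice. In high PAC, 4 of the 5 mice exceeded every water mouse for both genes, and the other 3 water mice lay close beneath them.

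The edgeR log2 fold change of high PAC against water was 0.57 for Uchl1 (SE 0.29, adjusted p = 0.367) and 0.60 for Elavl4 (SE 0.30, adjusted p = 0.371). Exact permutation of log2(FPKM + 0.1) gave p = 0.0238 for Uchl1 and 0.0317 for Elavl4, but 0.0873 to 0.167 for Uchl1 and 0.0635 to 0.143 for Elavl4 when any 1 high PAC mouse was left out. The edgeR values were 0.11 and 0.14 without water mice 1 and 3 and 0.12 and 0.21 without the 4 mice with the lowest Myh11. Exons of Uchl1 overlap those of an antisense gene, Uchl1os, and the counting is not stated to use strand, so reads of the pair cannot be told apart.

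Ret differed least between water mice 1 and 3 and the other water mice. Its level was 1.98, 2.67, 1.70, 2.55 and 2.34 FPKM in the water mice, 2.85, 2.61, 3.06, 1.62 and 2.32 FPKM in the low PAC mice and 2.46, 2.75, 2.41, 3.15 and 3.39 FPKM in the high PAC mice. The groups overlapped, and the edgeR log2 fold change of high PAC against water was 0.24 (SE 0.16, 95% interval -0.09 to 0.58, adjusted p = 0.460), 0.10 without water mice 1 and 3 and 0.16 without the 4 mice with the lowest Myh11.

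Of the 3 glial genes, S100b had the largest log2 fold change in high PAC against water. It was read at 0.36, 0.73, 0.29, 0.74 and 1.08 FPKM in water, at 1.18, 1.16, 1.06, 0.86 and 0.96 FPKM in low PAC and at 1.03, 1.18, 0.98, 1.16 and 1.42 FPKM in high PAC mice. Only water mouse 5 reached the range of the PAC mice. The edgeR log2 fold change was 0.77 for high PAC (SE 0.27, 95% interval 0.20 to 1.34, unadjusted p = 0.0112, adjusted p = 0.248) and 0.67 for low PAC against water (SE 0.27, unadjusted p = 0.0246, adjusted p = 0.976). Exact permutation gave p = 0.0238 for high PAC and 0.0317 for low PAC; the first was 0.0556 without high PAC mouse 5, and the second was 0.0556 to 0.0794 without low PAC mouse 1, 2 or 3 or water mouse 3. Without water mice 1 and 3, edgeR gave 0.38 and 0.28 (unadjusted p = 0.0821 and 0.190), and without the 4 mice with the lowest Myh11 it gave 0.44 for high PAC against water (unadjusted p = 0.0418, adjusted p = 0.622).

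Sox10 and Gfap showed no such separation. Sox10 was 0.48, 0.79, 0.39, 0.89 and 0.65 FPKM in water, 0.71, 0.98, 1.25, 1.05 and 0.78 FPKM in low PAC and 0.80, 1.30, 0.81, 0.57 and 1.44 FPKM in high PAC mice, and its edgeR log2 fold change for high PAC against water was 0.53 (SE 0.28, adjusted p = 0.377), 0.27 without water mice 1 and 3 and 0.34 without the 4 mice. Gfap lay between 0.04 and 0.32 FPKM in every mouse, with a log2 fold change of 0.45 (SE 0.46, adjusted p = 0.647), 0.08 and 0.26 without the same mice.

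Over the 8 genes, none passed an adjusted p of 0.05 in high PAC against water by edgeR, where 0.0139% of the 14386 genes did (2 genes), and DESeq2 gave no adjusted p for these genes. At an unadjusted p under 0.05, 2 of the 8 were higher (Cartpt and S100b) against 4.37% of all genes, and none was lower. With each mouse left out in turn this count ran from 1 to 4, against 3.43% to 5.25% of all genes. Without water mice 1 and 3 there were 0 (3.23% of all genes higher), and without the 4 mice with the lowest Myh11 the same 2 (3.6%). By exact permutation 4 of the 8 were higher at p under 0.05 (Cartpt, Uchl1, S100b and Elavl4) against 14.2% of all genes. None of these 4 stayed under 0.05 without water mice 1 and 3. Without the 4 mice with the lowest Myh11, 3 of them did not. The share of all genes was not taken in these settings. With all mice, all 8 had an edgeR log2 fold change above 0, as did 50.5% of all genes, with a median of 0.55 against 0.00 over all genes. None had every high PAC mouse above every water mouse, where 3.99% of all genes did. The 8 genes share cells and mice, so these counts are not 8 separate observations. Myh11 itself had a log2 fold change of 0.42 (SE 0.36, adjusted p = 0.567).

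**Figure D2:**
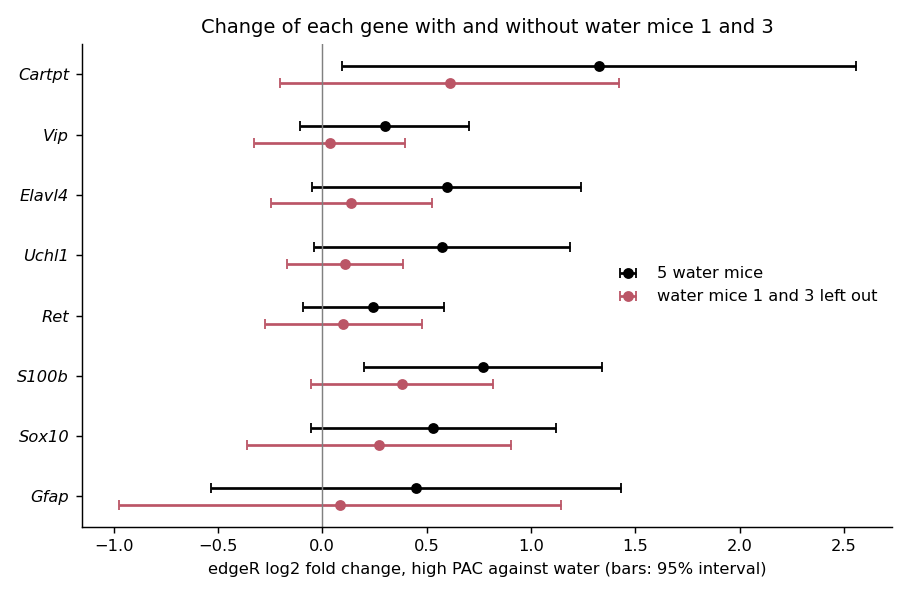
The edgeR log2 fold change of high PAC against water (x axis, bars give the 95% interval) for each gene, with all 5 water mice in black and without water mice 1 and 3 in red. The red points lie nearer 0 for every gene, and only the black intervals of Cartpt and S100b leave 0 out. Water mice 1 and 3 were picked after the values were seen and are low in most of the genes. A shift toward 0 was therefore built in.

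The level of muscle was taken into account by a ratio to Myh11 and by Myh11 as a covariate in the edgeR fit, and the approaches named different genes at an unadjusted p under 0.05 in high PAC against water. By the ratio it was Cartpt alone. With the covariate the log2 fold change was 0.89 for Cartpt (unadjusted p = 0.0392, adjusted p = 0.257), 0.52 for S100b (unadjusted p = 0.0114, adjusted p = 0.192) and 0.35 for Uchl1 (unadjusted p = 0.0480, adjusted p = 0.276), in a fit in which 9.02% of all genes were higher at that threshold. Uchl1 came to 48.2, 48.2, 52.0, 40.6 and 48.9 FPKM per 1000 FPKM of Myh11 in the water mice and to 46.9, 42.5, 93.3, 47.4 and 49.3 in the high PAC mice, so water mice 1 and 3 stood level with the rest and high PAC mouse 3 stood apart. Elavl4 behaved alike, at 10.9 to 15.1 in water and 12.5 to 22.1 in high PAC. Ret and Vip did not. Ret came to 42.8 and 40.5 FPKM per 1000 FPKM of Myh11 in water mice 1 and 3 and to 14.2 to 17.1 in the other water mice, and Vip to 184 and 197 against 86.8 to 98.9. In high PAC mouse 3, all of Vip (227), Uchl1, Elavl4, Ret (26.6), S100b (10.8) and Sox10 (8.95) were the highest of their group relative to Myh11.

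**Figure D3:**
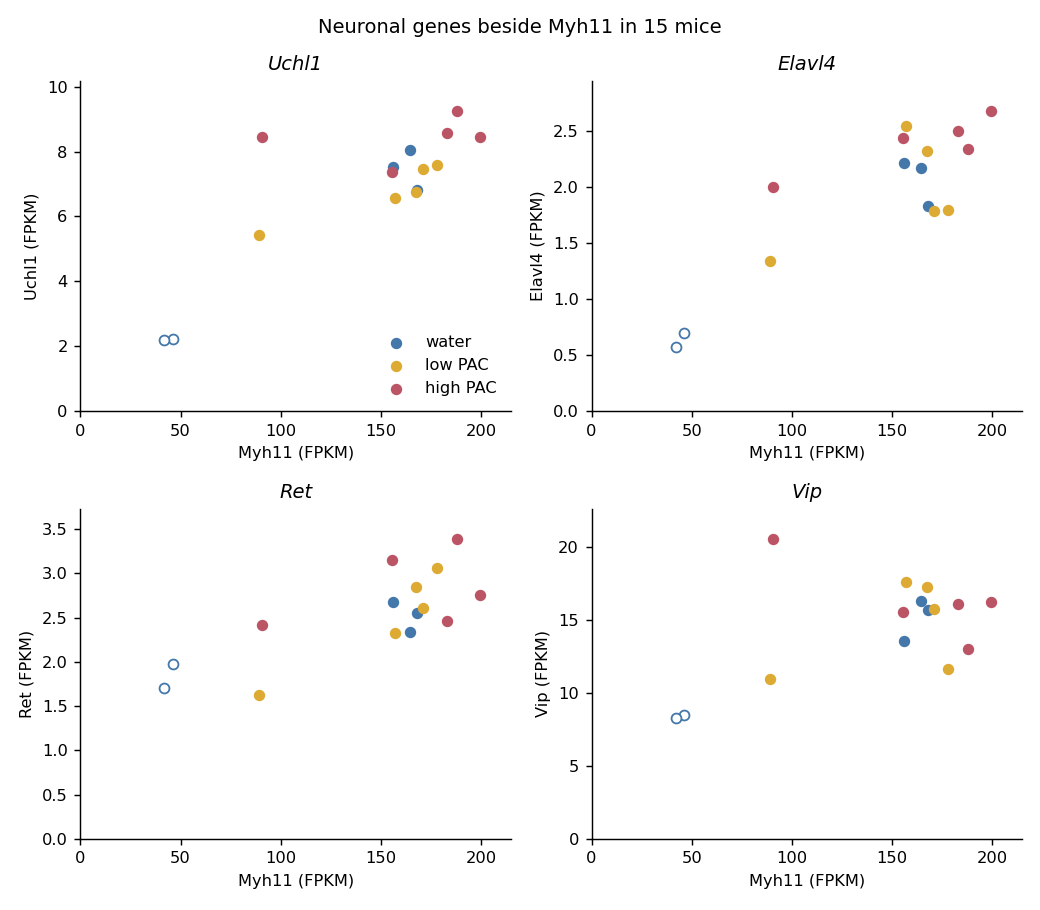
FPKM of Uchl1, Elavl4, Ret and Vip (y axes) against FPKM of Myh11 (x axes) in 15 mice, coloured by group, with water mice 1 and 3 as open circles. Uchl1 and Elavl4 are lowest in the open circles, at 2.18 and 2.23 and at 0.57 and 0.70 FPKM, while Ret and Vip keep a larger part of their level there; the mice fall into clusters by Myh11.

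On log2 values the difference between high PAC and water relative to Myh11 lay between -0.38 and 0.16 for Ret, Gfap, Vip, Sox10, Elavl4, Uchl1 and S100b, with exact permutation p from 0.357 to 0.722. Cartpt was the exception, 1 of 8 members against 2.71% of all genes in either direction. It came to 0, 5.78, 0, 3.45 and 3.16 FPKM per 1000 FPKM of Myh11 in water, to 5.85, 3.04, 5.39, 3.70 and 3.83 in low PAC and to 6.89, 4.92, 7.62, 5.73 and 8.31 in high PAC mice. The difference was 1.06 (exact permutation p = 0.0238) against water and 0.54 (exact permutation p = 0.0397) against low PAC, the latter between 0.0635 and 0.0794 when high PAC mouse 1, 3 or 5 or low PAC mouse 2, 4 or 5 was left out. The difference from low PAC was 0.47 with the 12 smooth muscle genes in place of Myh11 (exact permutation p = 0.0556), 0.47 without the 4 mice with the lowest Myh11 (exact permutation p = 0.143) and 0.22 with a pseudocount of 1 FPKM (exact permutation p = 0.278).

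The ratio of Cartpt against water turns on the 2 counts of 0. At 3 counts those mice would stand at 4.89 and 5.40 FPKM per 1000 FPKM of Myh11, inside the range of the other water mice, and the difference would be 0.38 (exact permutation p = 0.183). It was 0.65 without them (exact permutation p = 0.0714) and -0.10 with a pseudocount of 1 FPKM, which exceeds most Cartpt values. Relative to the mean of Elavl4, Uchl1 and Ret, Cartpt was 1.096 higher in high PAC than in water (exact permutation p = 0.0397), but 0.41 higher with the zeros at 3 counts (exact permutation p = 0.0714) and 0.43 without the 2 mice (exact permutation p = 0.161). Vip was at -0.24 by the same measure (exact permutation p = 0.230). It was at -0.08 without the 2 mice (exact permutation p = 0.696).

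**Figure D4:**
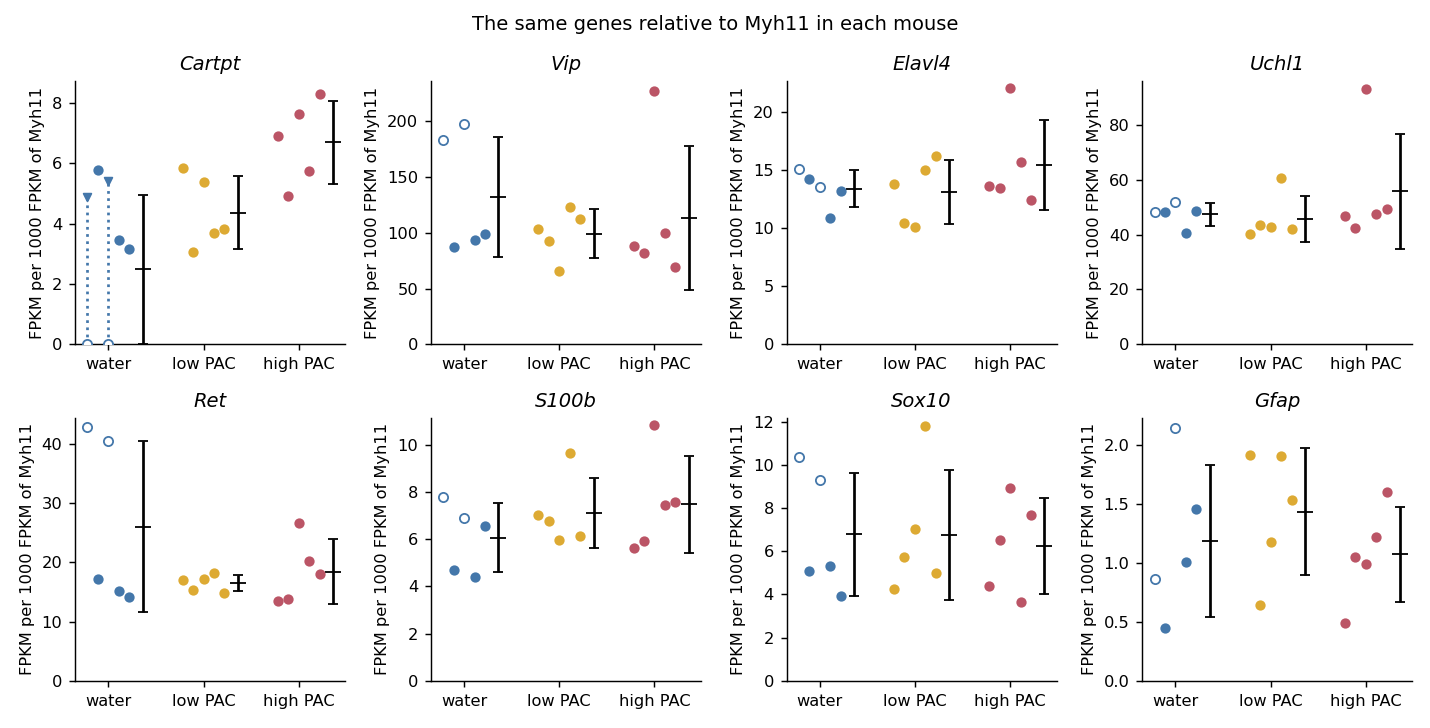
Each gene as FPKM per 1000 FPKM of Myh11 (y axes from 0) by mouse and group, with mean and SD as black bars and water mice 1 and 3 as open circles; blue triangles in the Cartpt panel mark what 3 counts would give in those 2 mice (4.89 and 5.40). The open circles are level with the other water mice for Elavl4 and Uchl1, above them for Vip, Ret, S100b and Sox10, and high PAC mouse 3 is the highest high PAC point for 6 of the 8 genes.

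Low PAC against water gave the same sign as high PAC for all 8 genes on the edgeR scale, with log2 fold changes from 0.08 for Ret to 0.72 for Cartpt and Gfap, and the comparisons share the water mice. None passed an adjusted p of 0.05 (0% of all genes, with adjusted p of 0.976 to 0.984 for the 8). At an unadjusted p under 0.05, 1 was higher by edgeR (S100b, against 1.4% of all genes) and 1 by exact permutation (S100b, against 3.48%). With each mouse left out in turn the edgeR count ran from 0 to 2, against 0.761% to 2.52% of all genes. It was 0 without water mouse 1 or 3 or low PAC mouse 2. None had every low PAC mouse above every water mouse, where 0.494% of all genes did. A log2 fold change above 0 was found in 45.5% of all genes. Without water mice 1 and 3, with low PAC mouse 4 kept, Elavl4, Uchl1, Ret and Vip were at -0.11, -0.16, -0.06 and -0.07. Cartpt was at 0.0060, and Gfap, S100b and Sox10 at 0.35, 0.28 and 0.26. None was at an unadjusted p under 0.05, where 0.851% of all genes were higher and 0.838% lower. Without the 4 mice with the lowest Myh11, 6 of the 8 were above 0 (median 0.11), against 47.9% of all genes. There too, none was at an unadjusted p under 0.05, where 1.32% of all genes were higher and 1.58% lower.

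The direct comparison of the PAC fractions, given at the same dose and for the same time, asks whether polymer size matters. By edgeR no member passed an adjusted p of 0.05 (0% of all genes) or an unadjusted p under 0.05 in the higher direction (1.84% of all genes). Cartpt was 0.60 higher in high PAC on the log2 scale (95% interval -0.53 to 1.74, adjusted p = 0.896), Uchl1 0.27 (-0.34 to 0.88) and Elavl4 0.25 (-0.39 to 0.89). The intervals were -0.17 to 0.50 for Ret, -0.29 to 0.51 for Vip, -0.45 to 0.65 for S100b, -0.56 to 0.58 for Sox10 and -1.18 to 0.64 for Gfap, so these data cannot tell apart no difference from one as large as these bounds. Of the 8 values 7 were above 0, against 51.4% of all genes. Exact permutation gave p = 0.0238 for Uchl1 (1 of 8 genes, against 3.7% of all genes), where 4 of 5 high PAC mice exceeded every low PAC mouse, with a difference of 0.32 on log2(FPKM + 0.1); without the 4 mice with the lowest Myh11 it was 0.24 (exact permutation p = 0.0857).

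Other genes of the nerve plexus were taken from lists of their markers, and none of these genes passed an adjusted p of 0.05 in any comparison. Of 20 pan-neuronal genes 18 were tested, and all 18 had a log2 fold change above 0 in high PAC against water, with a median of 0.59 and 5 at an unadjusted p under 0.05, beside the 50.5% and 4.37% of all genes given above. Without water mice 1 and 3, 15 of the 18 were above 0 with a median of 0.18 and 1 at an unadjusted p under 0.05, against 53.8% and 3.23% of all genes. With the 4 mice with the lowest Myh11 left out, these values were 16, 0.25 and 4, against 53.2% and 3.6% of all genes. With all mice, Scg2, a granin of secretory vesicles, had the smallest p by edgeR (0.55, SE 0.17, unadjusted p = 0.00569). Tubb3, the neuronal tubulin, was next by p, at 0.79. The pan-neuronal sum was 24.2 and 22.5 FPKM in water mice 1 and 3 and 60.7 to 61.0 FPKM in the other water mice. It was 42.7 to 69.7 FPKM in low PAC and 60.3 to 78.7 FPKM in high PAC mice. Of 15 tested genes for transmitters and peptides, 14 were above 0 with a median of 0.41. The 3 with the smallest p by edgeR were Calb2 at 0.62 (calretinin), Nog at 0.53 and Calcb at 0.51 (unadjusted p = 0.0672 for Calcb). Of 16 such genes tested without water mice 1 and 3, 9 were above 0 (median 0.05). In low PAC against water 17 of 18 pan-neuronal and 11 of 15 transmitter and peptide genes were above 0, against 45.5% of all genes. Without those 2 mice 6 of 18 and 6 of 16 were, against 51.4% of all genes. With the 4 mice with the lowest Myh11 left out, 9 of 18 and 7 of 16 were, against 47.9%.

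The glial and growth factor lists were mixed. Among 13 tested glial genes 10 were above 0 in high PAC against water (median 0.20), and the 3 with the smallest p had values below 0, Mbp at -0.20, Erbb3 at -0.50 and Entpd2 at -0.20 (unadjusted p = 0.00338, 0.0195 and 0.025). Kcna1, named after its value was seen, was the 1 glial gene higher at an unadjusted p under 0.05, at 0.56. Erbb3, which is also made by epithelium, was read at 28.3 to 78.1 FPKM, Mbp at 12.2 to 14.9 FPKM and Entpd2 at 11.6 to 16.1 FPKM, all far above Sox10. Of 15 tested genes of the Ret and neurotrophin pathways 8 were above 0 and 7 below (median 0.14), with Bmp2 at -0.40, Edn3 at -0.48 and Nrg1 at -0.71 (unadjusted p = 0.00563, 0.0131 and 0.0262) and 1 gene, Gfra3, higher at an unadjusted p under 0.05, at 0.52 (named after its value was seen). Over all genes 4.37% were higher and 10.4% lower at that threshold. Without water mice 1 and 3, 9 of 14 glial genes (median 0.12) and 6 of 15 of these pathway genes (median -0.02) were above 0. Of the 8 genes of both lists at an unadjusted p under 0.05 with all mice, Mbp alone was still there (-0.18, unadjusted p = 0.0193), where 3.23% of all genes were higher and 4.51% lower. The 3 receptors listed for VIP differed in sign. Vipr1, the receptor of epithelium, was at -0.32, Vipr2, the receptor of smooth muscle, at 0.42 and Adcyap1r1 at 0.43 (unadjusted p = 0.0197, 0.0205 and 0.258). With water mice 1 and 3 left out they were at -0.36, 0.39 and -0.06 (unadjusted p = 0.0279, 0.0668 and 0.818).

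Lists of the cells around the plexus also differed in sign, beside 50.5% of all genes above 0 with all mice. All 12 smooth muscle genes were above 0 in high PAC against water (median 0.42, none at an unadjusted p under 0.05), with Tagln at 0.48, Tpm2 at 0.53 and Myl9 at 0.51. So were all 4 genes of interstitial cells of Cajal (median 0.18; Kit 0.25, Etv1 0.27, Cacna1h 0.11), all 6 of mesothelium (median 0.82; Msln 1.16, Gpm6a 0.73, Wt1 0.96) and all 5 of adipocytes (median 0.65; Cfd 0.73, Adipoq 0.64, Plin1 0.65). Of 8 epithelial genes 7 were below 0 (median -0.25), with Krt20 at -0.42, Cdh17 at -0.35 and Vil1 at -0.33. Enteroendocrine genes split 8 above and 6 below, with Scgn at 0.49, Gcg at 0.45 and Sst at 0.39 (3 higher and 1 lower at an unadjusted p under 0.05, against 4.37% and 10.4% of all genes), and 6 of 8 follicular B cell genes were above 0 (Ms4a1 0.48, Cd79a 0.18, Cd79b 0.15). When water mice 1 and 3 were left out, 53.8% of all genes were above 0 in high PAC against water. So were 5 of the 12 smooth muscle genes (median -0.02) and 1 of the 4 genes of interstitial cells (median -0.07). Of the 6 mesothelial genes 5 were above 0 (median 0.19), and of the 5 adipocyte genes 4 (median 0.30). In the same setting 5 of the 8 epithelial genes were below 0 (median -0.14), 1 of them at an unadjusted p under 0.05 where 3 were with all mice. There 9 of 14 enteroendocrine genes were above 0 (median 0.23 against 0.05 with all mice). Of these genes 3 were higher at an unadjusted p under 0.05, against 3.23% of all genes. All 8 follicular B cell genes were above 0 (median 0.66 against 0.13) with wide errors, as for Ms4a1 at 0.96 (SE 1.67). None of the 8 was at an unadjusted p under 0.05. Without the 4 mice with the lowest Myh11, 53.2% of all genes were above 0. So were all 12 smooth muscle (median 0.10), 4 interstitial (0.05), 6 mesothelial (0.41) and 5 adipocyte genes (0.51). In that setting 7 of 8 epithelial genes were below 0 (median -0.08). Above 0 were 8 of 14 enteroendocrine (median 0.10) and 6 of 8 follicular B cell genes (0.12). The members were low together with the muscle and mesothelial genes in water mice 1 and 3. Mesothelial genes summed to 7.94 and 7.97 FPKM there, against 12.1 to 33.2 FPKM in the other 13 mice. The part of these lists in the members' differences was not tested apart from the values given with Myh11 and relative to the 12 smooth muscle genes. Relative to these 12, Cartpt alone had a p under 0.05 in high PAC against water (1.11, exact permutation p = 0.0238), again with its 2 counts of 0, and the other 7 ran from -0.33 to 0.21.

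Across mice, with group means subtracted, the 28 pairs of members had a median Pearson r of 0.61 over 15 mice and of 0.09 over the 11 mice with the most Myh11, from -0.72 to 0.62. Their r with Myh11 within those 11 mice ran from -0.31 for Elavl4 to 0.81 for Sox10, and no pooled value is given because the mice fall into clusters by Myh11. These are descriptions of genes read in the same libraries.

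The genes whose pattern over the 15 mice was most like a member's, among 12420 genes with a mean of at least 1 FPKM, were for Cartpt Ndn (r = 0.97), Enpp5 and Nsg1. For Elavl4 they were Chl1 (0.98), Lrch2 and Cnr1, the cannabinoid receptor of enteric neurons. Uchl1 was most like Stmn2 (0.96), a neuronal stathmin, Zfp651 and the smooth muscle gene Tagln. Vip was most like Lum (0.89), Tac1 (0.88), the tachykinin precursor, and Fbxo28. Those like Ret included Pamr1 (0.92) and Svep1 (0.92). S100b was most like Gfra4 (0.96), Nxn and C1rl, Sox10 like Rab3a (0.92), Chst12 and Sytl1, and Gfap like Glul (0.89), Crispld2 and Klb. Within the 11 mice with the most Myh11, r was 0.86 for Cartpt with Ndn, 0.89 for Elavl4 with Cnr1 and 0.90 for Sox10 with Rab3a, but 0.33 for Uchl1 with Stmn2 and 0.48 for Vip with Lum.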

How the data were processed

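RNA from the intestine of 15 mice (5 per group, 1 library each) was analysed from values the authors deposited per mouse. The authors cleaned BGISEQ-500 read pairs with SOAPnuke and mapped them to mm10 with Bowtie2; the submitters' processing notes also name HISAT and DESeq2 without a role, and the counting tool is not given in the sources used here. The authors deposited, for each gene, an expected count, which is not normalized, and an FPKM, which is scaled by transcript length and mapped fragments. A gene missing from a mouse was set to 0. Depth was 15963086 to 17903886 expected counts per mouse.

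Rounded expected counts were tested with edgeR 4.0.16 in R 4.3.3 (TMM, quasi-likelihood, filter by the 3 groups, 1 model of 15 mice), with Benjamini-Hochberg adjustment over 14386 genes. Single genes were compared by two-sided exact permutation of log2(FPKM + 0.1), with scipy 1.17.1, also after subtracting log2(Myh11 + 0.1). The pseudocount compresses differences among values near or below it, and these differences of mean log2 values need not equal edgeR's. Ratios per 1000 FPKM of Myh11 have no pseudocount. The scripts were tested on simulated data. Alternatives were DESeq2 1.42.0, limma 3.58.1, upper-quartile scaling, no filter, other pseudocounts, a replicate block, Myh11 as a covariate, a 12-gene muscle reference and each mouse left out; leaving out the low-muscle mice and setting counts of 0 to 3 counts were added after seeing the data. The p-values measure the spread between mice.

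The 8 members and the 12 marker lists were chosen with earlier results of these data known. Named genes are the 8 members and Myh11, the 3 genes of each list with the smallest unadjusted p in high PAC against water or any gene past the adjusted threshold, and the 3 genes most like each member; 2 genes that this rule names are not reported here. The study's own threshold method, NOISeq, was not rerun. Correlations of same-numbered mice of different groups ran from -0.307 to 0.445 over the 3 comparisons. Their mean was 0.149 in high PAC and 0.123 in low PAC against water, and -0.123 in high against low PAC. For differently numbered mice it was -0.038, -0.031 and 0.032. The numbers were not used as pairs in the main fit, and the replicate block is given as an alternative.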

Additional observations from a re-analysis of the deposited data

Results flagged for a closer look

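Among 27 sets of 5 mice examined for a single distant value (the 8 genes and Myh11 in each group), 1 stood out: Myh11 in low PAC mouse 4 was 89.17 FPKM, while the other low PAC mice lay between 156.79 and 178.07 FPKM, a gap that took 0.761 of the group's range. Chance alone flags about 1 set in 20. In that mouse Ret, Elavl4 and Uchl1 were the lowest of the low PAC group at 1.62, 1.34 and 5.42 FPKM, and so were Vip, S100b and Cartpt at 10.96, 0.86 and 0.33 FPKM, while Sox10 was second highest at 1.05 FPKM. Low values shared by 2 mice of a group, as in water mice 1 and 3, cannot be picked up in this way.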

How the results depend on the processing

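Adjusted calls among the 8 members stayed at 0 in every comparison under every alternative; DESeq2 gave an adjusted p for 6577 genes in high PAC against water, none of them a member. Members at an unadjusted p under 0.05 in high PAC against water numbered 2 with edgeR and with DESeq2, 5 with limma, 3 with Myh11 as a covariate, 3 with the replicate block and 0 without water mice 1 and 3, all higher, where 4.37%, 6.15%, 15.8%, 9.02%, 3.91% and 3.23% of all genes were higher. Scaling moved the split over all genes, from 628 higher and 1500 lower with TMM to 1505 and 816 by upper quartile, which named 2 members. The count of all genes called in high PAC against water was 2, and it was 167 with DESeq2, 9 with limma on log2(FPKM + 0.1), 0 without water mice 1 and 3, 0 without the 4 mice with the lowest Myh11 and 2 to 11 when each mouse was left out; in low PAC against water it was 0, 2 with DESeq2 and 0 to 1. With the replicate block the members at an unadjusted p under 0.05 by edgeR were S100b, Elavl4 and Uchl1 (unadjusted p = 0.00955, 0.0347 and 0.0437; adjusted p = 0.333, 0.373 and 0.378), and Cartpt stood at 1.35 (unadjusted p = 0.0554, adjusted p = 0.395). Its counts over all genes were 2, 0 and 0, and the only change of sign was Sox10 in high against low PAC, at -0.018. Cartpt in high PAC against water kept its sign on the edgeR and FPKM scales throughout.

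Values changed sign under some settings, most of them small; the largest were Cartpt, Uchl1 and Elavl4 in low PAC against water on log2(FPKM + 0.1), at 1.13, 0.54 and 0.52 with all mice, and Cartpt relative to Myh11 in high PAC against water, at 1.06. With water mice 1 and 3 left out, low PAC against water gave edgeR values of -0.11 (Elavl4), -0.0621 (Ret), -0.16 (Uchl1) and -0.0738 (Vip), and log2(FPKM + 0.1) differences of -0.030 (Cartpt), -0.0724 (Vip), -0.10 (Elavl4), -0.15 (Uchl1) and -0.0443 (Ret); relative to Myh11, high PAC against water gave 0.14 (Vip), 0.20 (Ret), 0.30 (Sox10) and 0.13 (Gfap). Without the 4 mice with the lowest Myh11, edgeR gave -0.0487 for Vip in high PAC against water, -0.0025 (Elavl4) and -0.0925 (Uchl1) in low PAC against water and -0.0601 (Vip) in high against low PAC; log2(FPKM + 0.1) gave -0.0708 (Uchl1, low PAC against water), -0.0194 (Vip) and 0.0808 (Sox10, both high against low PAC); relative to Myh11, high PAC against water gave 0.0550 (Ret), 0.14 (Sox10) and 0.0521 (Gfap). With Myh11 as a covariate Ret was -0.0869 in low PAC against water and Sox10 -0.0286 in high against low PAC, where limma gave -0.0029. A pseudocount of 1 gave 0.0093 for Sox10 in high against low PAC and, relative to Myh11, -0.10 (Cartpt), -0.19 (Elavl4) and -0.28 (S100b) for high PAC and -0.32 (Cartpt) for low PAC against water; Cartpt at 3 counts gave -0.17 there. Leaving out each mouse, Sox10 in high against low PAC ran from -0.17 to 0.15 (edgeR) and from -0.15 to 0.15 (FPKM), and relative to Myh11 in high PAC against water Elavl4 ran from -0.0210 to 0.19, Uchl1 from -0.0489 to 0.23 and Sox10 from -0.35 to 0.0160. The cause of these changes was not tested. Depth limits Cartpt, Gfap and S100b, whose counts were lowest.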
